A study of Mus musculus with 15 samples.

Results

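Of 54232 gene identifiers counted in the striatum of 15 mice, 7 genes drew attention because their levels differed between mice. These were Tuba1c, Eif3j2, Eno1b, Catspere1, Catspere2, Tmem181b-ps and 1700034H15Rik. They were picked from these same counts as possible signs of genetic background, gene copies or read mapping, so their levels are given as a description and support nothing by themselves. Each name matched 1 row of the count table, and all 7 were among the 18278 genes with enough reads to enter the tests. RNA was sequenced from the striatum, the brain region most affected in Huntington's disease, of 4 E1, 4 KI-96 and 7 WT mice, all at 6 months of age. The labels give the genotypes as E1 and KI-96 and explain neither name. The title of the study concerns knock-in mice of that disease and RAN, in which an expanded repeat is translated with no start codon. Each library came from its own mouse, and the mice are called here by genotype and replicate number, such as WT 1. Nothing used here gives sex, strain or batch.

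The libraries held between 14678565 and 26388542 counts in all: 18199927 to 19533231 in E1, 14678565 to 23373551 in KI-96 and 17281603 to 26388542 in WT. The 9 striatal projection neuron markers examined had reads in every group, with summed levels of 6060 to 9355 CPM in E1, 4978 to 8145 CPM in KI-96 and 5458 to 8791 CPM in WT (CPM gives each count relative to the scaled total of its library). The 8 cortical neuron markers summed to 866 CPM in E1 3, 1308 CPM in E1 2 and 1164 CPM in WT 3, and to 125.5 to 244 CPM in the other 12 libraries. The 4 Y-linked genes examined summed to 157.6 to 205 CPM in WT 2 to WT 7, and to at most 0.132 CPM in the other 9 libraries, WT 1 among them. Xist, the X-linked RNA that silences an X chromosome in female cells, stood at 933 to 1204 CPM in E1, 891 to 1626 CPM in KI-96 and 1065 CPM in WT 1, and at 0.269 to 3.00 CPM in WT 2 to WT 7. The split between WT 1 and the other 6 WT libraries is therefore given beside each result that it touches. In whole tissue, fewer cells of a type and less RNA per cell cannot be told apart.

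Most of these genes belong to families with close copies elsewhere in the genome. When a coding gene is duplicated, or its messenger RNA is copied back into the genome as a processed pseudogene, the copies can stay so similar that a sequencing read fits several places, and the count of each copy then depends on how such reads are treated. Copies can also be present in some inbred mouse strains and absent, silent or altered in others, and a reference genome records only the strain it was built from. Alpha-tubulins form microtubules with beta-tubulins, enolase is a step of glycolysis, and the translation initiation factor eIF3 brings ribosomal subunits and messenger RNA together. The CatSper complex is the calcium channel of the sperm tail, where its genes are known for their part in sperm motility.

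Tuba1c (ENSMUSG00000043091), an alpha-tubulin gene, lies at chr15:99029891-99038110 on the plus strand (build GRCm38, GENCODE M21 annotation) and has 2 annotated transcripts. Eif3j2 (ENSMUSG00000043424), at chr18:43475418-43477796 on the minus strand, is annotated as a coding gene with a single exon and is a copy of Eif3j1, a loosely bound eIF3 subunit. Eno1b (ENSMUSG00000059040), at chr18:48045335-48048412 on the plus strand, has 1 or 2 exons and is a copy of Eno1, the widely expressed alpha-enolase. Catspere1 (ENSMUSG00000102483), at chr1:177808550-177962233, and Catspere2 (ENSMUSG00000091476), at chr1:177983423-178172704, lie next to each other on the plus strand. Catspere2 encodes an accessory subunit of the CatSper channel, and Catspere1 is an unprocessed pseudogene in GENCODE M21 but a coding gene in RefSeq. Tmem181b-ps (ENSMUSG00000096780), at chr17:6438524-6467022 on the minus strand, is a transcribed unprocessed pseudogene related to Tmem181a, whose human counterpart is a membrane protein. 1700034H15Rik (ENSMUSG00000055833), at chr1:191886130-191907527 on the minus strand, is annotated as antisense and overlaps Slc30a1, which encodes a zinc exporter.

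The similarity of the copies is plain in their sequences. Of the 100-base stretches of Eif3j2 transcripts, 84.0% occur unchanged in Eif3j1, and of those of Eno1b 63.6% occur in Eno1 and 74.7% in any other gene. The shares with any other gene were 46.0% for Tuba1c (11 genes), 33.3% for Tmem181b-ps (4 genes), 11.5% for Catspere1 and 6.58% for Catspere2. For 1700034H15Rik the share was 6.08%, all of it with Slc30a1, which it overlaps on the other strand, as matches on either strand were counted. Aligned over 2379 bases, Eif3j2 and Eif3j1 differ at 4 bases and 10 gap positions, and their longest identical run is 1083 bases. Eno1b and Eno1 differ at 9 of 1652 aligned bases, and Tuba1c and Tuba1b at 19 of 1336. Catspere1 and Catspere2 are less alike, at 89.7% identity over 3036 aligned positions. No source used here gives the read length or the treatment of reads that fit several genes, so counts of the copies are uncertain in the stretches they share.

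The promoters of the Catspere pair are shown because both genes were read at higher levels in the same 6 WT mice. Each window of 300 bases runs from 250 before to 50 after the annotated start (RefSeq, GRCm38.p6, plus strand, chr1:177808169-177808468 for Catspere1 and chr1:177991148-177991447 for Catspere2). Capitals mark bases within the alignment that differ or have no counterpart in the other window, and window ends outside the alignment are in lower case.
Catspere1: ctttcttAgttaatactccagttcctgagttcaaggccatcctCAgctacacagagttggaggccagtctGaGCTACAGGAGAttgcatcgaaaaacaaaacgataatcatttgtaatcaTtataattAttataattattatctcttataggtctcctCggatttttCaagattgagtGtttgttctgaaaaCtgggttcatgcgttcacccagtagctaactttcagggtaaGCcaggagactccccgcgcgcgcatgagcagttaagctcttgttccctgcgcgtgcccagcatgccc
Catspere2: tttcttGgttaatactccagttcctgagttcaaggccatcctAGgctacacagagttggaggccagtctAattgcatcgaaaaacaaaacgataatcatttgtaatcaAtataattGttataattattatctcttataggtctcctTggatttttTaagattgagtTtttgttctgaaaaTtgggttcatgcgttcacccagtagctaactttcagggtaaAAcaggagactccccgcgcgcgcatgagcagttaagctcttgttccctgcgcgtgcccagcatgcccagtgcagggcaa
Over 299 aligned positions the windows have 12 mismatches and 11 gap positions, an identity of 92.3%. The Catspere2 window follows a RefSeq start that lies inside the GENCODE M21 span of the gene, which begins at 177983423. It also lies within the pseudogene Gm37313, annotated on the minus strand.

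For each gene the 15 libraries were placed in order of level, and the widest step between neighbours was taken as the gap, in log2 CPM. Over all 18278 tested genes the median gap was 0.29, the 99th percentile was 1.71, and 1051 genes (5.75%) had a gap of at least 1. The gaps were 4.62 for Catspere1, 4.10 for Eno1b, 3.00 for Tuba1c and 2.50 for Eif3j2, which ranked 11, 16, 36 and 57 among all tested genes. Catspere2 had a gap of 1.02 (rank 978). Tmem181b-ps (0.46, rank 5193) and 1700034H15Rik (0.37, rank 6936) had gaps little above the median gene. A gap can be made by 1 outlying library, and with at least 3 libraries required on each side 152 tested genes had a gap of at least 1. By that count Catspere1, Eno1b, Tuba1c and Eif3j2 ranked 9, 10, 22 and 30, Catspere2 145, Tmem181b-ps 1162 and 1700034H15Rik 2064 of the tested genes. Some genes read almost only in 3 libraries, such as Gm13736 and Gm3650, failed the filter and have no rank. Levels set widely apart were thus seen in 4 of the 7, less so in Catspere2, while steps in the other 2 were below 0.5 on the log2 scale.

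**Figure D1:**
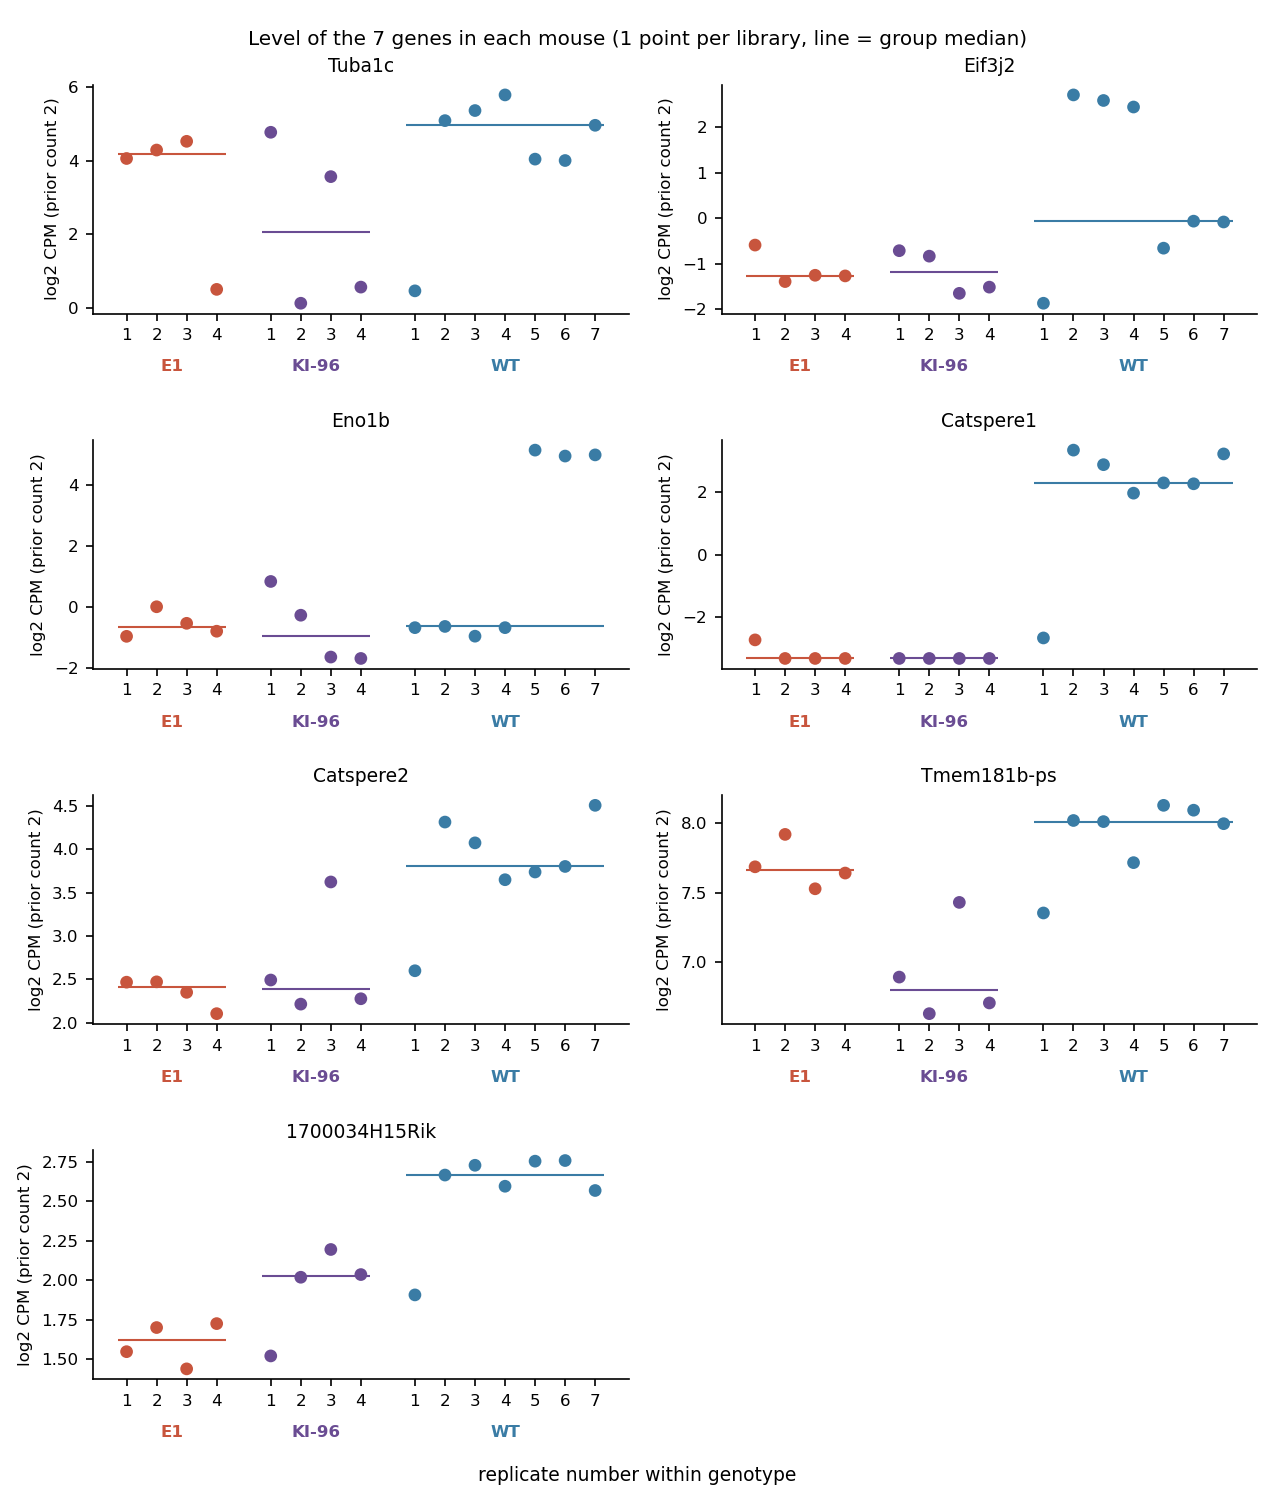
Log2 CPM (vertical axis, prior count 2) of the 7 genes in each mouse, 1 point per library with the group median as a line. Eif3j2 is high in WT 2 to WT 4, Eno1b in WT 5 to WT 7 and Catspere1 in WT 2 to WT 7, while low Tuba1c values occur in all 3 genotypes.

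**Figure D2:**
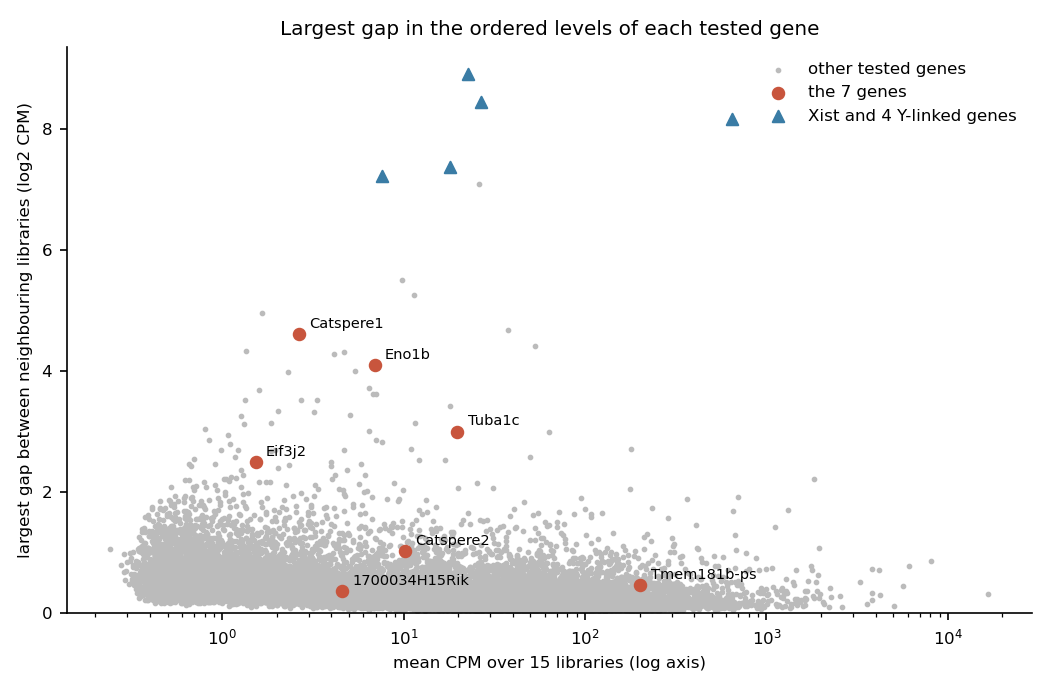
Largest gap between neighbouring libraries (log2 CPM) against mean CPM over 15 libraries (log axis) for all 18278 tested genes, with the 7 genes in orange and Xist and 4 Y-linked genes as triangles. Tmem181b-ps (0.46) and 1700034H15Rik (0.37) lie within the body of all genes, and Catspere1 (4.62) and Eno1b (4.10) far above it.

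Tuba1c was nearly unread in 4 mice that came from all 3 genotypes. It had 323, 346, 431 and 25 reads in E1 1 to E1 4, 374, 15, 215 and 33 reads in KI-96 1 to KI-96 4, and 22 reads in WT 1 against 399 to 1058 reads (median of all 7 WT libraries 31.1 CPM) in WT 2 to WT 7. The low libraries were E1 4, KI-96 2, KI-96 4 and WT 1, at 0.987 to 1.37 CPM, and the lowest of the other 11 was KI-96 3 at 11.7 CPM, 8.03-fold above the highest low library on the log2 scale with its prior count. Group means were 15.1 ± 9.53 CPM in E1 (SD, n = 4), 10.3 ± 12.3 CPM in KI-96 (n = 4) and 27.8 ± 18 CPM in WT (n = 7), and all pairs of groups overlapped. The 11 libraries above the gap were themselves spread over 11.7 to 55.1 CPM.

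The related genes Tuba1a and Tuba1b had gaps of 0.46 and 0.26, against 3.00 for Tuba1c. Tuba1a, the main neuronal alpha-tubulin of the developing brain, had 386 ± 28.3 CPM in E1, 294 ± 64.6 CPM in KI-96 and 341 ± 16.2 CPM in WT (SD, n = 4, 4 and 7). Tuba1b, a broadly expressed alpha-tubulin, had 103 ± 24.7 CPM, 85.8 ± 22.4 CPM and 98.0 ± 12.7 CPM in the same order of groups. Of the reads assigned to the 3 genes together, Tuba1c took 0.267% (95% Wilson interval 0.181 to 0.393) in E1 4, 0.275% (0.167 to 0.453) in KI-96 2, 0.296% (0.211 to 0.416) in KI-96 4 and 0.306% (0.203 to 0.464) in WT 1. Its share in the other libraries was 3.38% to 11.0%, so the intervals of the low and high mice are far apart; they cover counting error only.

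Processed tubulin pseudogenes were among the genes whose levels followed Tuba1c most closely across the 15 libraries. By Pearson r of log2 CPM, given as a description over 15 libraries that share their depth with each gene, the first 5 included Gm3226 (r = 0.934, chromosome 13), Gm14150 (0.926, chromosome 2), 1700087I21Rik (0.860) and Gm3756 (0.831, chromosome 9). Gm14150 had 73, 97, 106 and 9 reads in E1 1 to E1 4, 86, 4, 106 and 14 reads in KI-96 1 to KI-96 4, and 0 reads in WT 1 against 87 to 175 in the other 6 WT libraries. The same 11 libraries lay above its gap of 2.23 as for Tuba1c. Of the 100-base stretches of Gm3226, Gm14150 and Gm3756, 31.9%, 28.0% and 10.7% also occur in Tuba1c, while 1700087I21Rik shares 0 of its own. Prph, a neurofilament gene next to Tuba1c on chromosome 15, had 12, 6, 14 and 4 reads in E1 1 to E1 4, 9, 3, 5 and 2 reads in KI-96 1 to KI-96 4 and 4 to 50 reads in WT (r = 0.83). On the other side the nearest tested gene, 4930578M01Rik, had r of -0.62. Whether the pseudogenes were transcribed or received reads of Tuba1c was not tested.

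**Figure D3:**
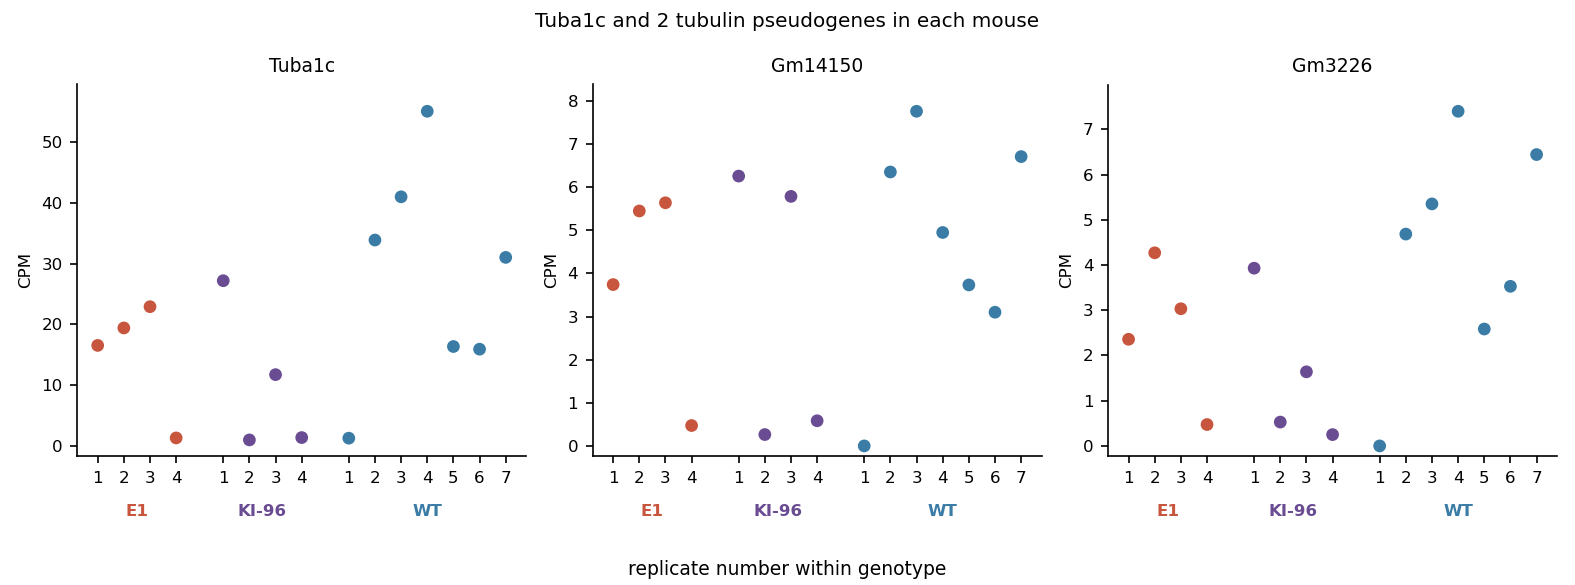
CPM (vertical axis, linear) of Tuba1c and the tubulin pseudogenes Gm14150 and Gm3226 in each mouse, 1 point per library. E1 4, KI-96 2, KI-96 4 and WT 1 are the lowest libraries of all 3 genes, and WT 1 has 0 reads of both pseudogenes.

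Eif3j2 was high in 3 WT mice. It had 11, 5, 6 and 6 reads in E1 1 to E1 4, 7, 7, 4 and 6 reads in KI-96 1 to KI-96 4, and 3, 119, 100, 102, 13, 24 and 22 reads in WT 1 to WT 7. WT 2, WT 3 and WT 4 stood at 6.41, 5.88 and 5.31 CPM, and the other 12 libraries at 0.174 to 0.855 CPM. E1 and KI-96 libraries all lay within the range of the WT libraries. The summed cortical markers were 213, 1164 and 148 CPM and the summed choroid plexus markers 413, 193 and 81.0 CPM in WT 2, WT 3 and WT 4, and their part in these levels was not tested.

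The reads of Eif3j2 and its copy Eif3j1 summed to a nearly constant level. Together they had 31.1 ± 2.04 CPM in E1 (SD, n = 4), 29.3 ± 1.76 CPM in KI-96 (n = 4) and 31.4 ± 1.38 CPM in WT (n = 7). Eif3j2 took 20.1%, 20.2% and 16.9% of these reads in WT 2, WT 3 and WT 4, and 0.536% to 2.68% in the other 12 libraries. Eif3j1 itself was at 25.5, 23.2 and 26.1 CPM in WT 2, WT 3 and WT 4, the 3 lowest values of all 15 libraries, and at 26.4 to 32.7 CPM in the rest. Eif3j1, which the choice of genes did not use, had log2 fold changes of 0.10 (SE 0.10, edgeR adjusted p = 0.761) for E1 against WT and 0.02 (SE 0.10, adjusted p = 0.954) for KI-96 against WT.

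Of the tested genes, Gm28438 followed Eif3j2 most closely (r = 0.922 over 15 libraries). It is an unprocessed pseudogene on chromosome 1, with 19 to 94 reads in the 8 E1 and KI-96 libraries and 59, 1606, 1284, 1205, 44, 85 and 122 reads in WT 1 to WT 7. The next were the clock repressor Ciart (0.849), Fubp3 (0.836), Tmem87b (0.831) and Tma16 (0.793), whose gaps were 0.06 to 0.21. With a looser limit of 0.5 CPM in 3 libraries, 2 further pseudogenes came first and second, Gm13736 (0.934, chromosome 2) and Gm3650 (0.925). Gm3650 lies at chr18:43472816-43475169 on the plus strand, 249 bases from Eif3j2, and had 51, 52 and 65 reads in WT 2, WT 3 and WT 4 and 0 or 1 read in each other library. Gm28438, Gm13736 and Gm3650 share no stretch of 50 bases with Eif3j2. The nearest tested genes on either side, Dpysl3 and Jakmip2, had r of -0.10 and -0.27.

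Eno1b was high in 3 different WT mice, those with the highest totals. It had 8, 16, 11 and 9 reads in E1 1 to E1 4, 23, 11, 4 and 5 reads in KI-96 1 to KI-96 4, and 9, 10, 7, 10, 849, 854 and 815 reads in WT 1 to WT 7. WT 5, WT 6 and WT 7 stood at 34.8, 30.4 and 31.2 CPM, with all other libraries at 0.208 to 1.67 CPM. These 3 had the highest totals of the series, 23457270, 26388542 and 25445799 reads. KI-96 4, with 23373551 reads, had 5 reads of Eno1b.

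Eno1b took 6.94% (95% Wilson interval 6.50 to 7.40), 6.37% (5.97 to 6.79) and 5.96% (5.58 to 6.37) of the reads of Eno1b and Eno1 in WT 5, WT 6 and WT 7, and 0.0301% to 0.207% in the other libraries. Eno1 was at 467, 448 and 493 CPM in those 3 WT mice. In the remaining libraries it lay at 637 to 852 CPM in E1, 457 to 806 CPM in KI-96 and 613 to 725 CPM in WT 1 to WT 4. Reads of both genes together reached 502, 478 and 524 CPM in WT 5 to WT 7, so the sum there was also below that of every library but KI-96 3 (457 CPM). Eno1 had log2 fold changes of 0.33 (SE 0.16, edgeR adjusted p = 0.572) for E1 against WT and 0.21 (SE 0.16, adjusted p = 0.661) for KI-96 against WT.

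Genes on several chromosomes shared the pattern of Eno1b. The first 5 tested genes were Tma7-ps (r = 0.932, chromosome 1), Ptgfr (0.910, chromosome 3), Gm47469 (0.871), the collagen gene Col5a2 (0.847, chromosome 1) and the phosphate transporter gene Slc34a1 (0.845). Ptgfr, the prostaglandin F receptor gene, had 75, 109 and 127 reads in WT 5, WT 6 and WT 7 and 1 to 9 reads in each other library. Tma7-ps, a processed pseudogene, had 125, 154 and 377 reads in those 3 mice and 1 to 13 elsewhere. With the looser limit of 0.5 CPM in 3 libraries, untested genes came before Tma7-ps: Gm2860 (r = 0.953), Sycp1 (0.947), Gm13841 (0.938) and Gm8210 (0.934). All but Sycp1 are processed pseudogenes. Gm13841 had 87, 81 and 209 reads in WT 5, WT 6 and WT 7 and 0 to 3 reads in each other library. Of 15 tested genes with r of at least 0.8 to Eno1b, 0 lie on chromosome 18, which holds 2.52% of tested genes, and no tested gene lies within 500 kb of Eno1b.

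**Figure D4:**
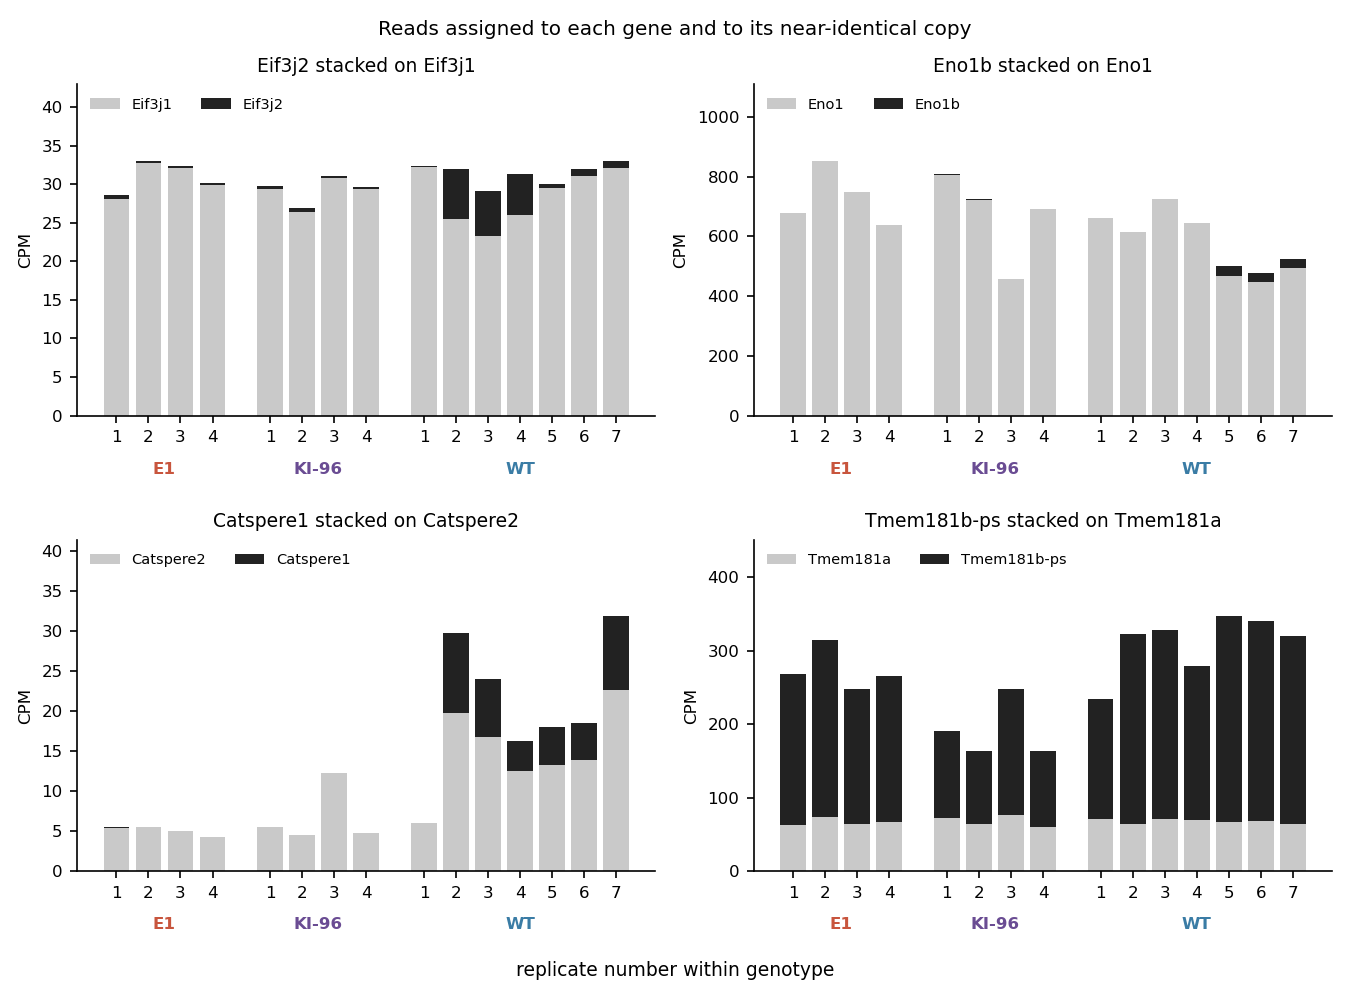
Stacked CPM of each gene (black) on its closest copy (grey) in each mouse, for the pairs Eif3j2 and Eif3j1, Eno1b and Eno1, Catspere1 and Catspere2, and Tmem181b-ps and Tmem181a. In WT 2 to WT 4 the grey Eif3j1 part is shorter (23.2 to 26.1 CPM) while the whole bar keeps the height of the other libraries.

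Catspere1 was read in 6 WT mice and almost nowhere else. It had 1, 0, 0 and 0 reads in E1 1 to E1 4, 0 reads in each of the 4 KI-96 libraries, and 1, 186, 123, 73, 117, 132 and 240 reads in WT 1 to WT 7. WT 1, with 1 read, stood with E1 and KI-96 and not with the other WT mice. The 4 KI-96 libraries held 0 reads in 72355003, which allows up to 0.0415 CPM on raw totals (3 counts over the group), at least 141.8-fold lower than the 5.88 CPM of the WT group. For the 1 read in the 4 E1 libraries, WT stood 443-fold higher, with a counting interval of 79.2 to 17500. WT 2 to WT 7 are the libraries with high Y-linked levels, and the 5 genes most like Catspere1 were all Y-linked: Uty (r = 0.991), Eif2s3y (0.991), Gm29650 (0.990), Ddx3y (0.988) and Kdm5d (0.987). No 50-base stretch of Catspere1 occurs in those 5. WT 1 is the only WT library with 0 Y-linked reads, and there Catspere1 was low. Male germ cell markers (6 genes) summed to at most 0.578 CPM in E1, 0.291 CPM in KI-96 and 0.573 CPM in WT.

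Catspere2, the neighbour of Catspere1, was read in every mouse and was highest in the same 6 WT mice. It had 106, 97, 94 and 80 reads in E1 1 to E1 4, 76, 69, 224 and 114 reads in KI-96 1 to KI-96 4, and 103, 368, 285, 239, 323, 389 and 591 reads in WT 1 to WT 7. In CPM it averaged 5.02 ± 0.585 in E1 (SD, n = 4), 6.76 ± 3.67 in KI-96 (n = 4) and 15.0 ± 5.44 in WT (n = 7). E1 spanned 4.20 to 5.45 CPM and WT 5.96 to 22.7 CPM, with no overlap, and WT 1 was the lowest WT library. KI-96 3, at 12.2 CPM, was close to the lowest of WT 2 to WT 7 (12.5 CPM), yet it had 0 reads of Catspere1 and 0 of the Y-linked genes. Catspere1 therefore took 0% of the pair's 224 reads in KI-96 3 (upper 95% Wilson bound 1.69%) and 23.4% to 33.6% in WT 2 to WT 7. Across the 15 libraries r was 0.907 between the pair and 0.889 between Catspere2 and Uty. Gm8010, a pseudogene inside the Catspere2 locus, had r of 0.80 with it, and the nearest tested genes beyond the pair on either side, Adss and Desi2, had -0.03 and 0.54 (Adss had -0.05 with Catspere1).

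Other genes of the CatSper channel were few in striatum and had smaller gaps than Catspere1. Of 11 listed, 6 had enough reads to be tested, and Catsper1 and Catsperb, which encode a pore subunit and an accessory subunit, had 0 reads in all libraries. Of the 6, Catsperz alone had a gap of at least 1 (1.03), with 2 libraries above it. Catsper2, a pore subunit gene, had log2 fold changes of -0.17 (SE 0.17, edgeR adjusted p = 0.779) for E1 against WT and -0.28 (SE 0.17, adjusted p = 0.580) for KI-96 against WT.

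1700034H15Rik, on the same chromosome as the Catspere pair, was highest in the same 6 WT mice. It had 55, 56, 49 and 61 reads in E1 1 to E1 4, 38, 60, 82 and 96 reads in KI-96 1 to KI-96 4, and 63, 116, 111, 114, 162, 187 and 152 reads in WT 1 to WT 7. In CPM this was 2.94 ± 0.281 in E1 (SD, n = 4), 3.80 ± 0.728 in KI-96 (n = 4) and 5.93 ± 1.06 in WT (n = 7). WT 1, at 3.65 CPM, lay among the KI-96 libraries (2.77 to 4.48 CPM), and WT 2 to WT 7 lay at 5.83 to 6.66 CPM. The 5 genes most like it were the same Y-linked genes as for Catspere1, led by Kdm5d (r = 0.918), and its r with Catspere1 was 0.90. Slc30a1, the gene it overlaps on the other strand, had r of -0.58 with it, and Ints7, a nearby gene of the integrator complex, had -0.78. The nearest tested genes on either side, Nek2 and Rd3, had r of 0.15 and -0.41. No source used here says whether counting used strand, so reads of Slc30a1 and its antisense partner cannot be told apart where they overlap.

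**Figure D5:**
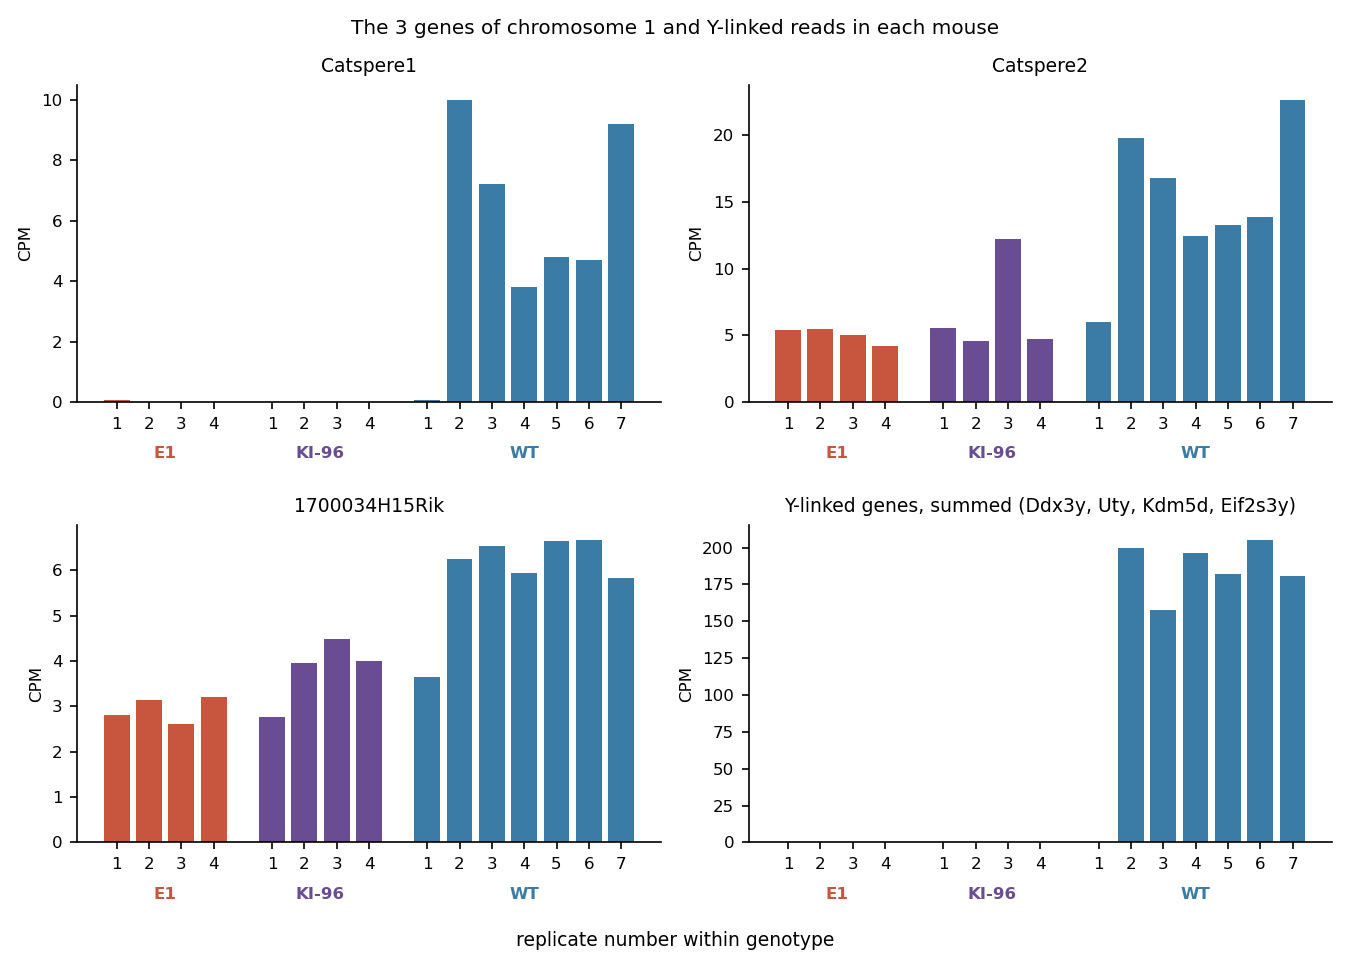
CPM (vertical axis, linear from 0) of Catspere1, Catspere2, 1700034H15Rik and the sum of 4 Y-linked genes in each mouse, 1 bar per library. WT 2 to WT 7 are high in all panels, WT 1 stands with E1 and KI-96, and KI-96 3 has 12.2 CPM of Catspere2 with 0 reads of Catspere1.

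Tmem181b-ps, which took the most reads of the 7, was lowest in KI-96. It stood at 206, 242, 184 and 199 CPM in E1 1 to E1 4, at 119, 98.9, 172 and 104 CPM in KI-96 1 to KI-96 4, and at 163 to 279 CPM in WT (median 258 CPM). All 4 KI-96 libraries lay below all 4 E1 libraries, and KI-96 3 alone reached above the lowest WT library, which was WT 1. Group means were 124 ± 33.6 CPM in KI-96 (SD, n = 4), 208 ± 24.3 CPM in E1 (n = 4) and 243 ± 41.4 CPM in WT (n = 7). Tmem181a stood at 67.8 ± 7.46 CPM in KI-96, 66.3 ± 4.83 CPM in E1 and 67.6 ± 2.69 CPM in WT. The log2 fold changes of Tmem181a were 0.03 (SE 0.09, edgeR adjusted p = 0.893) for KI-96 against E1 and 0.00 (SE 0.08, adjusted p = 0.988) for KI-96 against WT. Of the reads assigned to both, Tmem181b-ps took 60.8% to 69.4% in KI-96, 74.4% to 76.8% in E1 and 69.9% to 80.6% in WT, as a share of reads and not corrected for transcript length. The genes most like it were Slf1 (r = 0.876), Pbld2 (0.858), Serpinb1b (0.850), Dync1i2 (0.844) and Gm42940 (0.843). Dynlt1b, a dynein light chain gene that neighbours Tmem181b-ps, had 26, 8, 33 and 39 reads in KI-96 1 to KI-96 4, 42, 41, 60 and 64 reads in E1 1 to E1 4 and 28 to 122 reads in WT (r = 0.72). Gm26848, which overlaps Tmem181b-ps, and Dynlt1c, the nearest tested gene on the other side, had r of 0.15 and 0.40. Tmem181c-ps, another copy on chromosome 17, had few reads: 2 to 10 per library in KI-96, 7 to 16 in E1 and 2 to 32 in WT. Its r with Tmem181b-ps was 0.73, and its log2 fold change for KI-96 against WT was -1.13 (SE 0.58, edgeR adjusted p = 0.504).

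The 7 genes did not share a single pattern across mice. Eif3j2 and Eno1b, high in WT 2 to WT 4 and in WT 5 to WT 7, had r of 0.01 with each other. Only the 3 genes on chromosome 1 had r of at least 0.87 among themselves, and each other pair among the 21 had r of 0.01 to 0.78. These values describe 15 libraries and carry no test. WT 1 was the lowest WT library for all genes but Eno1b, for which WT 3 was lowest.

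Set in the fit over all genes, these patterns gave large and uncertain differences between the genotype groups. Among WT libraries WT 1 alone lacked Y-linked reads, which were absent or nearly absent in every E1 and KI-96 library. Genotype and Y-linked level thus largely coincided in the comparisons with WT, and their parts were not separated. E1 against WT had negative log2 fold changes for all 7 genes (median -1.58, with -0.00 over all 18278 genes), and edgeR's quasi-likelihood test called 0 of 7, where 0.00547% of all genes were called. KI-96 against WT was also negative for all 7 (median -1.45, all genes -0.01), with 0 of 7 called where 0% of genes were. KI-96 against E1 was positive for 3 and negative for 4 (median -0.10, all genes -0.00), with 0 of 7 called and 0% of genes. At an unadjusted p under 0.05 there were 5, 6 and 1 of the 7 in these comparisons, in that order, beside 1599, 1916 and 2607 of all genes. E1 and KI-96 were set against the same WT libraries, and the 7 genes were chosen on the counts tested, so these counts support nothing about them. The SE was wide for genes at separate levels within WT. For E1 against WT Eno1b had -4.58 (SE 1.58) and Tuba1c -0.88 (SE 0.95), while 1700034H15Rik had -1.01 (SE 0.19) and Catspere2 -1.58 (SE 0.33). For KI-96 against WT, Eno1b had -4.44 (SE 1.58), Eif3j2 -3.00 (SE 0.90), Tuba1c -1.45 (SE 1.00) and Tmem181b-ps -0.97 (SE 0.16).

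The calls depended on the tool and on WT 1. DESeq2 called 4 of 7 for E1 against WT (Catspere1, Catspere2, Eno1b and 1700034H15Rik, with 0.337% of genes called), 3 of 7 for KI-96 against WT (Catspere1, Catspere2 and Tmem181b-ps, 0.437%) and Tmem181b-ps for KI-96 against E1 (1.13%). Limma-voom called 0 of 7 in each comparison (0.0109% of genes for E1 against WT, and 0% in the others). Without WT 1, edgeR called Catspere1, Catspere2 and 1700034H15Rik for E1 against WT (0.0659% of genes) and Catspere1 and Tmem181b-ps for KI-96 against WT (0.0604%). All WT libraries then left have at least 157.6 CPM of the 4 Y-linked genes. Each E1 and KI-96 library has at most 0.132 CPM, so that genotype and Y-linked level cannot be told apart in that fit. In the fits on all libraries, DESeq2 included, WT 1 is the only library that parts them in the comparisons with WT. Without E1 4, edgeR called Catspere1 and 1700034H15Rik for E1 against WT (1.38%), and without KI-96 3 it called Tmem181b-ps for KI-96 against WT (0.0108%), as it did with no filter on low counts (0.00272%). Libraries of the groups did not overlap for Catspere1, Catspere2 and 1700034H15Rik in E1 against WT (0.799% of genes lay lower in E1 without overlap), for Catspere1 in KI-96 against WT (0.651%) and for Tmem181b-ps in KI-96 against E1 (2.50%). For Catspere1 that separation rests on WT 1 and E1 1 with 1 read each.

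Genes related to the 7 by family or position, which the choice did not use, were compared between genotypes in the same fit. Of 110 tested copies, family members and genes within 500 kb, edgeR called 0 in each comparison. Over all genes it called 0.00547% for E1 against WT and 0% in the others. An unadjusted edgeR p under 0.05 was seen in 8, 11 and 12 of the 110 for E1 against WT, KI-96 against WT and KI-96 against E1. Over all 18278 genes it was seen in 1599, 1916 and 2607 in the same order. Median log2 fold changes of the 110 were 0.06, -0.03 and -0.09 in that order. DESeq2 called Gm8010 for E1 against WT (0.337% of genes called) and Ddx23 and Dynlt1b for KI-96 against WT (0.437%). All 13 listed eIF3 subunit genes, 5 of 6 alpha-tubulin genes and all 4 enolase genes were tested, with no call and no gap of at least 1.

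Other genes with wide gaps divided the mice in further ways. Apart from the Y-linked genes and Xist, the widest gaps with at least 3 libraries on each side and a mean of at least 1 CPM were in processed pseudogenes: Gm6969 (5.26), Atp6v0c-ps2 (4.68), BC002163 (3.72) and Gm7993 (3.63). Gm6969 was high in E1 1, KI-96 2, KI-96 4 and WT 5 to WT 7, and BC002163 in E1 3, WT 2, WT 4, WT 6 and WT 7, neither of which follows genotype or Y-linked reads. Of 4 genes known to differ among laboratory mouse strains, Nnt, which C57BL/6J mice carry with a deletion, was at 0.428 to 1.80 CPM in all 15 libraries. Ide, duplicated in some strains, ranged from 35.3 CPM in E1 1 to 80.0 CPM in E1 4 within E1, 56.3 to 64.3 CPM in KI-96 and 39.2 to 87.1 CPM in WT. Glo1, also duplicated in some strains, ranged over 72.3 to 120 CPM in E1, 58.0 to 129 CPM in KI-96 and 69.4 to 159 CPM in WT, and Fgfbp3 over 5.02 to 13.1 CPM, 3.82 to 8.70 CPM and 4.92 to 10.47 CPM in the same order of groups. The part of strain in the levels of the 7 genes was not tested.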

How the data were processed

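The authors deposited 1 table of raw counts, whole numbers per gene in 15 libraries with differing column totals, and no source used here records a normalization of it. STAR, HTSeq, DESeq2 1.24.0 and build GRCm38 are named, per the submitters' processing notes, with no role or setting. The annotation used in counting, strandedness and read length are stated nowhere in the sources used. Identifiers were matched without version to GENCODE M21 (54165 of 54232).

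The 7 genes and all lists were chosen with earlier results of these data known. Besides the 7, the text names their closest copies, neighbours with r of at least 0.8 or at most -0.8 and the nearest on each side, the 5 genes most like each member (1 is not reported here), and the widest gaps among other genes. Genes such as Ints7, Slc30a1, Dynlt1b, Catsper2, Catsper1, Catsperb, Gm13736, Gm3650, Gm2860, Sycp1, Gm13841 and Gm8210 were named after their values were seen.

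Low genes were removed by filterByExpr of edgeR 4.0.16 (minimum count of 10), and counts were scaled with trimmed means of M-values, and tested with the robust quasi-likelihood fit over all 15 libraries. P-values were two-sided and Benjamini-Hochberg adjusted over 18278 genes at a threshold of 0.05. Log2 CPM used a prior count of 2. Alternatives used DESeq2 1.42.0, limma 3.58.1, other filters, prior counts and left-out libraries. The main edgeR fit was tested on simulated data for each comparison, and the alternatives were not. No libraries looked deposited in duplicate: all 33 within-group pairs differed beyond counting noise (smallest chi-square per degree of freedom 8.59). Sequence identity came from blastn 2.17.0, and shared stretches from exact matches of 50 or 100 bases among GENCODE M21 transcripts. Depth limits precision: genes with few reads per library, such as Catspere1 and Eif3j2, carry wide counting error, and intervals and floors cover counting error only.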

Additional observations from a re-analysis of the deposited data

Results flagged for a closer look

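Within groups of 4 to 10 libraries, a library was picked out where its distance to its nearest neighbour took up most of the group's range of log2 CPM. Chance alone gives this in about 1 in 20 groups for a gene chosen without regard to its counts. The genes studied here were picked because their levels differed between these mice, so that rate does not apply to them. The libraries below are therefore listed as a description only. For Tuba1c, E1 4 lay apart from the other E1 libraries (0.884 of the range, 25 reads, 1.31 CPM). For the same gene WT 1 lay apart from the other WT libraries (0.665 of the range, 22 reads, 1.27 CPM). For Catspere1, E1 1 lay apart (1.0 of the range), which is the difference between 1 read and 0 reads. WT 1 lay apart for Catspere1 (0.771 of the range, 1 read) and for 1700034H15Rik (0.777 of the range, 63 reads, 3.65 CPM). WT 1 is also the WT library without Y-linked reads. The part of this in its levels of Catspere1, 1700034H15Rik and Tuba1c was not tested.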

How the results depend on the processing

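The largest gap of each of the 7 genes separated the same libraries under every prior count and scaling tried and on leaving out each library in turn. Gaps ranged over 2.88 to 3.44 for Tuba1c, 2.33 to 2.64 for Eif3j2, 3.99 to 4.93 for Eno1b, 3.71 to 5.52 for Catspere1, 1.01 to 1.13 for Catspere2, 0.46 to 0.65 for Tmem181b-ps and 0.35 to 0.53 for 1700034H15Rik.

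Counts of calls moved more. For E1 against WT, edgeR called 1 gene in all, DESeq2 58 and limma-voom 2. It called 0 without the filter, with only both groups, with the replicate block, on libraries 1 to 4 without the block, and without the 3 libraries rich in cortical markers. Leaving out each library in turn gave 0 to 257 genes, 0 to 3 of the 7 and 0 to 1 related gene (Ints7 without WT 1). DESeq2 called 4 of the 7 and 1 related gene. For KI-96 against WT the count was 0, with 1 without the filter (Tmem181b-ps, one of the 7, so 1 of 7), 72 with DESeq2 (3 of the 7 and 2 related genes), and 0 to 11 genes and 0 to 2 of the 7 on leaving out libraries. For KI-96 against E1 it was 0, with 3 without the filter, 206 with DESeq2 (1 of the 7), and 0 to 190 genes on leaving out libraries. The cause of these shifts was not tested.

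Of the log2 fold changes under alternatives, 13 changed sign, 425 kept sign and side of the threshold, and 17 passed it. Eno1b turned to 0.24 for E1 against WT and to 0.22 for KI-96 against WT with the replicate block, and to 0.24 and 0.42 on the same libraries 1 to 4 without it, since WT 5 to WT 7 are then left out. For KI-96 against E1, Tuba1c was 0.17 without the cortical-rich libraries. Eif3j2 was 0.18 without E1 1, 0.07 without KI-96 3 and 0.06 without KI-96 4 (-0.30 to 0.18 over all left-out libraries). Eno1b was -0.33 with limma-voom, -0.02 with the replicate block, -0.01 without E1 1 and -0.71 without KI-96 1 (-0.71 to 0.50). Catspere2 was -0.03 without KI-96 3 (-0.03 to 0.58). Libraries with the same replicate number had correlations of -0.241 to 0.336 between their deviations from group means. Libraries with different numbers had -0.292 to 0.497, so these values gave no sign that the numbers pair mice. Depth limits Catspere1 and Eif3j2 most, with at most 11 reads per library in E1 and KI-96.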
